A study of Mus musculus with 21 samples.

Results

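The genes described here are the growth factor gene Igf1, its receptor gene Igf1r and the binding protein genes Igfbp1 to Igfbp7 of the insulin-like growth factor (IGF) system. They are the rows with these 9 symbols among the 48321 symbols of the count tables. The choice of these genes was made with earlier results of these data known. Igfbp1 had 0 counts in all 21 samples. The other 8 members passed the filter on low counts and were tested with 14311 genes in all.

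The samples were embryoid bodies, aggregates of differentiating cells, made from A2loxCre mouse embryonic stem cells labelled C57BL/6 and collected on day 3. In A2loxCre cells a coding sequence can be placed behind a promoter that doxycycline switches on, and here induction lasted 16 h. TWIST1, of the basic helix-loop-helix family, contacts DNA as a pair made with a second TWIST1 or with TCF3, TCF4 or TCF12, which are E-proteins. The study compared which partner TWIST1 was joined to.

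There were 7 groups of 3 samples, and 6 of the groups received doxycycline. The parental group was A2loxCre with no integrated Twist1, given doxycycline. The line with an integrated Twist1 monomer was measured without doxycycline (uninduced) and with it (induced). The other lines carried a Twist1 homodimer, or Twist1 joined to Tcf3, to Tcf4 or to Tcf12 (the heterodimers), each with doxycycline. The dimer lines have no uninduced group in these data, so in them the construct and the line cannot be told apart. The uninduced monomer differed from the parental group in line and in doxycycline, and these cannot be told apart there. Induction of the monomer likewise changed doxycycline and Twist1 together. How many clones a line came from is not given in the sources used here. The labels do not say that the 3 samples of a group came from separate cultures, so p-values measure the spread between these samples, which may be technical.

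Totals ran from 6648842 to 15999693 counts per sample. Levels are in CPM, counts scaled to a common library size with TMM factors. Mean Twist1 was 613 CPM in the induced monomer, 182.3 in the homodimer, 39.4 to 55.2 in the heterodimer lines, 8.11 in parental cells and 5.07 without induction of the monomer. Tcf4 averaged 330.4 CPM in the Tcf4 line against 47.5 in the parental line. Tcf3 in the libraries labelled TCF3 dimer averaged 154.2 CPM against 167.2 in the parental line. Tcf12 in those labelled TCF12 dimer averaged 93.1 against 66.1 (adjusted p = 0.055), with 53.2, 117.7 and 108.2 in samples 1 to 3. A raised Tcf12 was not particular to that group. Its mean reached 104.3 CPM with the TCF3 label (0.012 against parental cells) and 90.4 in the Tcf4 line (0.13). The TCF3 and TCF12 groups are therefore named by their labels here. Sample 1 labelled TCF12 dimer stood apart: in 8939 genes, the rank correlation of its deviation from its group with exon length was -0.674, against -0.425 to 0.467 in the 18 libraries of the other groups. Without it the spread shared by all samples (the square root of edgeR's common dispersion) went from 0.12 to 0.0539. Calls of the members that changed without it are given both ways. Sample 1 of the uninduced monomer, with the lowest total, also differed from its group: a chi-square of its counts per degree of freedom was 39.2 and 43.9 against samples 2 and 3, beside 1.46 to 4.08 for pairs without these 2 libraries and 94.5 and 116 for TCF12 dimer sample 1. The 10 pluripotency genes checked summed to 1321 to 2619 CPM in the samples, and 10 primitive streak and mesoderm genes to 226 to 268 CPM in the parental line and 23.9 to 51.9 in the others.

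IGF1 and IGF2 are secreted growth factors that act through the receptor tyrosine kinase IGF1R, whose signal passes by insulin receptor substrate (IRS) adaptors to the PI3K-AKT pathway and supports growth and survival of embryonic cells. IGF binding proteins hold IGFs outside the cell. They can keep them from the receptor or carry them to it, and proteases such as PAPP-A and HTRA1 cut the binding proteins and free the growth factor.

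TWIST1 pairs bind E-boxes, which have the letters CANNTG. The 250 bases before the RefSeq start are shown for Igfbp4 and Igfbp3, the members with the most results past the test, with each CANNTG in capitals and the strand of the gene given 5′ to 3′ (RefSeq, GRCm38.p6).
Igfbp4, chr11:99040994-99041243, plus strand: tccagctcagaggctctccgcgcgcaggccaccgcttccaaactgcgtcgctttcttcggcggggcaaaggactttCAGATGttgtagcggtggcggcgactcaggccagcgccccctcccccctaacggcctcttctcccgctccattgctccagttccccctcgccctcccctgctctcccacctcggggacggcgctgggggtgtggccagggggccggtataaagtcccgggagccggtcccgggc
Igfbp3, chr11:7213924-7214173, minus strand: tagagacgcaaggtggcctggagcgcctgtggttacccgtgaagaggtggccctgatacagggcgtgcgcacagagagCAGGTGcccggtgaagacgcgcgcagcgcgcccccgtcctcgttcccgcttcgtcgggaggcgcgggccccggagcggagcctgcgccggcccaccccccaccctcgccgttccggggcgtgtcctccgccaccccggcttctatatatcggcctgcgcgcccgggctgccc
Each window held 1 E-box. That of Igfbp4 reads CAGATG, with its first base 174 bases before the start, and that of Igfbp3 reads CAGGTG, 172 bases before the start. Of 32851 promoter windows of the same length, 66.2% held a CANNTG on these letters, which read the same on both strands, and 14.4% held CATCTG or its complement CAGATG. In the other members the windows held CAGCTG (Igf1), CATCTG (Igfbp1), CACGTG (the first of the Igfbp2 starts), CAACTG (Igfbp5) and CATATG (Igfbp6), and none in Igf1r and Igfbp7. CATATG was in 3.46% of all windows. These matches describe letters in the sequence only, and no binding was measured here.

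Counts were tested with edgeR's quasi-likelihood test, with Benjamini-Hochberg adjustment over all 14311 genes, and a gene is said to pass, rise or fall at an adjusted p under 0.05. The error given with a log2 fold change is its standard error (SE). Against the parental line, 2 of the 8 members tested passed in the induced monomer line (20.0% of all tested genes passed), 1 in the homodimer line (8.84%), 3 in the line labelled TCF3 dimer (28.3%), 2 in the TCF4 line (12.9%) and 3 in the line labelled TCF12 dimer (27.0%). In the uninduced monomer line 5 members passed (19.9%). Between the induced and the uninduced monomer no member passed (2.00%), 1 had an unadjusted p under 0.05, and DESeq2 called 0. Against the induced monomer, 5 members passed in the homodimer (18.5%), 3 in TCF3 (22.1%), 3 in TCF4 (27.4%) and 3 in TCF12 (33.5%). Between the 3 heterodimers taken as a class and the homodimer 2 passed (14.0%), and among the heterodimers 5 passed (26.0%). With 8 members these counts say little about the set as a whole, and the results that follow are those of single genes.

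Without sample 1 labelled TCF12 dimer, 14423 genes were tested and more passed in each comparison. The members passing against the parental line were then 5 for the induced monomer (35.2% of all genes), 3 for the homodimer (20.4%), 6 for TCF3 (46.5%), 3 for TCF4 (28.1%), 4 for TCF12 (30.3%) and 5 for the uninduced monomer (36.8%). Between induced and uninduced monomer 2 passed (6.17%). Against the induced monomer 6 passed for the homodimer (33.3%), 5 for TCF3 (40.9%), 6 for TCF4 (45.5%) and 3 for TCF12 (42.4%). In the comparison of heterodimers with the homodimer 3 passed (28.9%), and 7 among the heterodimers (40.1%). The 5 members called in the uninduced monomer against the parental line also passed without its sample 1, at -0.85 for Igf1r (adjusted p = 0.016), -0.77 for Igfbp3 (0.00021), -0.64 for Igfbp4 (0.042), 0.95 for Igfbp5 (0.012) and 1.32 for Igfbp7 (0.042), where 15.1% of all genes passed.

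**Figure D1:**
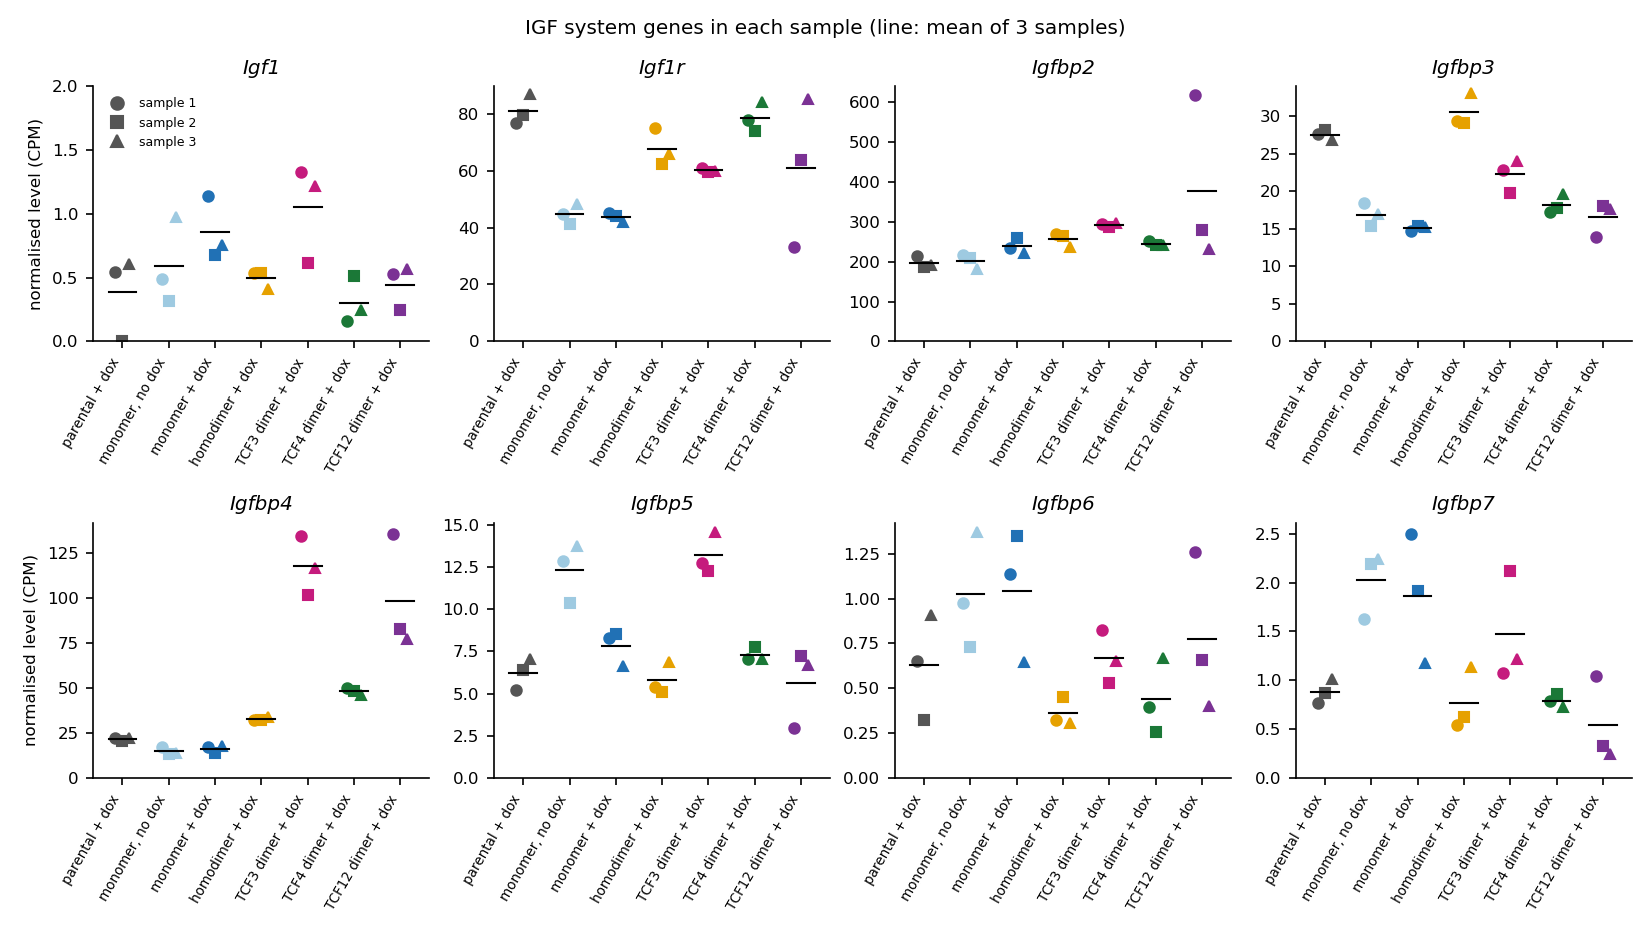
Normalised level (CPM, linear axes from 0) of the 8 tested members in each of the 21 samples, by group, with symbols for samples 1 to 3 and a line at the mean of each group. Igfbp4 stands above the parental samples in all samples of the homodimer and heterodimer lines, and sample 1 labelled TCF12 dimer lies apart for Igf1r, Igfbp2, Igfbp4 and Igfbp5.

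The ligand gene Igf1 (chr10:87858265-87937042, plus strand, GRCm38) was near the limit of detection. Samples 1 to 3 had 0.545, 0 and 0.605 CPM in parental cells, 0.488, 0.314 and 0.977 in the uninduced monomer and 1.14, 0.675 and 0.752 in the induced monomer. The dimers had 0.540, 0.539 and 0.411 (homodimer), 1.32, 0.618 and 1.22 (TCF3), 0.157, 0.513 and 0.243 (TCF4) and 0.525, 0.246 and 0.565 CPM (TCF12). These are 0 to 16 counts per sample, and 3 counts, taken as the floor, were worth 0.182 to 0.488 CPM; every neighbouring pair in the order of the group means overlapped. With all samples Igf1 passed in 1 test, that among the 3 heterodimers (adjusted p = 0.034), with means of 1.05 CPM in TCF3, 0.445 in TCF12 and 0.305 in TCF4. That call was lost without sample 1 or 3 labelled TCF3 dimer or sample 1 or 3 of the TCF4 line (adjusted p = 0.076 to 0.12), and Igf1 did not pass the filter on low counts when the 3 heterodimers were fitted alone. TCF3 against the parental line gave 1.42 ± 0.55 (adjusted p = 0.059) and 1.42 (0.027) without TCF12 dimer sample 1. TCF4 gave -1.50 ± 0.58 against the induced monomer (0.064), and -1.49 (0.03) without that sample.

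The second ligand gene, Igf2, is no member but was measured well above Igf1. It had 18.8 ± 3.19 CPM in parental samples (SD, n = 3), and rose against them in TCF3 (log2 fold change 0.43 ± 0.12 SE, adjusted p = 0.011), TCF4 (0.52 ± 0.12, 0.0051), TCF12 (0.38 ± 0.12, 0.026) and the uninduced monomer (0.42 ± 0.12, 0.02). In the TCF12 line without sample 1 the Igf2 log2 fold change was 0.47 (adjusted p = 0.0013).

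Igf1r (chr7:67952827-68233668, plus strand), the receptor that IGF1 and IGF2 signal through, was lower in the monomer line whether or not doxycycline was given. It had 76.5, 79.6 and 87.0 CPM in parental samples 1 to 3, against 44.9, 41.4 and 48.4 in the uninduced monomer and 45.1, 44.0 and 41.9 in the induced monomer. All 6 monomer samples lay below all 3 parental samples, and the monomer groups overlapped each other. Other lines had 74.8, 62.2 and 65.8 CPM (homodimer), 60.8, 59.5 and 59.9 (TCF3) and 77.7, 74.0 and 84.1 (TCF4). TCF4 overlapped the parental samples, and all homodimer and TCF3 samples lay below them. The libraries labelled TCF12 dimer had 33.3, 63.8 and 85.1 CPM, a wider spread than in any other group.

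Igf1r fell by 0.89 ± 0.20 on the log2 scale against the parental line in the induced monomer (adjusted p = 0.0027), a level 1.86-fold lower, and by 0.85 ± 0.20 in the uninduced monomer (0.0043). Both calls held under every alternative setting and without any single sample. Against the induced monomer Igf1r was higher in the TCF4 line (0.85 ± 0.20, adjusted p = 0.0029) and in the homodimer (0.63 ± 0.20, 0.031). The homodimer call was lost without any 1 monomer sample, or homodimer sample 1 or 3 (adjusted p = 0.059 to 0.11). Without TCF12 dimer sample 1 the homodimer value was 0.64 (7.3e-07). In the line labelled TCF12 dimer, Igf1r gave 0.48 ± 0.20 against the induced monomer (adjusted p = 0.067), and 0.78 (4.4e-08) without sample 1. Against the parental line TCF12 gave -0.41 ± 0.19 (adjusted p = 0.12), with -0.13 (0.3) without sample 1 and -0.74 (0.0023) without sample 3. The TCF3 value was -0.43 ± 0.19 (adjusted p = 0.11), and -0.44 (3.7e-05) without TCF12 dimer sample 1. Leaving out that sample also brought past the test Igf1r in the homodimer against the parental line (-0.26 ± 0.19, adjusted p = 0.55, to -0.26, 0.019), in TCF3 against the induced monomer (0.46 ± 0.20, 0.11, to 0.46, 7.7e-05) and among the heterodimers (0.18 to 0.00038).

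Insr, the insulin receptor gene and no member, had a like order in these lines: 41.5 ± 1.36 CPM in the parental line (SD, n = 3), 24.3 ± 0.193 in the induced monomer and 25.7 ± 4.26 in the uninduced monomer. Its log2 fold change was -0.77 ± 0.16 in the induced monomer (adjusted p = 0.0017) and -0.68 ± 0.16 in the uninduced monomer (0.0048). Igf2r, which clears IGF2 from the cell surface, had 161.6 ± 9.78 CPM in the parental line and 231.1 ± 17.9 in the induced monomer, with a log2 fold change of 0.52 ± 0.22 that did not pass (adjusted p = 0.12). Without TCF12 dimer sample 1 Igf2r passed there, at 0.51 (1.8e-06).

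Igfbp4 (chr11:99041244-99054392, plus strand) encodes a binding protein known mainly for holding IGFs away from their receptor and as the main target of the protease PAPP-A. It separated the lines more widely than any other member with at least 10 CPM on average, with a ratio of 7.87 between its highest and lowest group mean. Samples 1 to 3 had 22.4, 20.5 and 22.0 CPM in parental cells, 17.1, 13.6 and 14.2 in the uninduced monomer and 17.0, 13.9 and 17.5 in the induced monomer. The homodimer had 32.0, 32.2 and 33.8 CPM and the TCF4 line 49.9, 48.4 and 46.0. The libraries labelled TCF3 dimer had 134.5, 101.5 and 117 CPM, and those labelled TCF12 dimer 135.9, 82.8 and 77.0.

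In order of group means, TCF3 (117.7 ± 16.5 CPM, SD, n = 3) and TCF12 (98.6 ± 32.5) overlapped, both lay above TCF4 (48.1 ± 1.99), TCF4 above the homodimer (32.7 ± 0.932), the homodimer above the parental line (21.6 ± 1.03) and the parental line above the monomer line, whose induced (16.1 ± 1.92) and uninduced (14.9 ± 1.87) samples overlapped. Against the parental line Igfbp4 rose by a log2 fold change of 2.44 ± 0.17 in TCF3 (5.43-fold, adjusted p = 3e-09), 2.18 ± 0.17 in TCF12 (4.54-fold, 2.1e-08) and 1.15 ± 0.17 in TCF4 (2.22-fold, 7.6e-05). Without sample 1 the TCF12 value was 1.88 (adjusted p = 5.6e-16). These 3 calls held under every alternative setting.

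In the homodimer the rise against the parental line was 0.59 ± 0.17 (1.51-fold, adjusted p = 0.035), and leaving out any 1 of its 6 samples ended the call (adjusted p = 0.075 to 0.13). Without TCF12 dimer sample 1 the homodimer value was 0.59 (4.6e-05). In the uninduced monomer Igfbp4 fell by 0.55 ± 0.18 (adjusted p = 0.042), and that call was lost without any 1 parental sample or without uninduced sample 2 or 3 (0.065 to 0.15). Without TCF12 dimer sample 1 the uninduced monomer value was -0.57 (0.00036). The induced monomer gave -0.42 ± 0.18 (adjusted p = 0.12), and -0.43 (0.0039) without TCF12 dimer sample 1. Induced and uninduced monomer differed by 0.12 ± 0.19 (95% interval -0.27 to 0.52), with Twist1 itself 119-fold higher after induction.

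Against the induced monomer, Igfbp4 was higher in all 4 dimer lines: 1.02 ± 0.18 in the homodimer (2.02-fold, adjusted p = 0.00035), 2.87 ± 0.17 in TCF3 (7.28-fold, 1.9e-09), 1.57 ± 0.17 in TCF4 (2.98-fold, 1.4e-06) and 2.61 ± 0.17 in TCF12 (6.09-fold, 1.6e-09). These comparisons share the induced monomer samples, and those against the parental line share the parental samples. The 9 heterodimer samples, at 46.0 to 135.9 CPM, lay above the 3 homodimer samples (log2 fold change 1.33 ± 0.14, 2.52-fold, adjusted p = 2.3e-06). The 3 heterodimers differed among themselves (adjusted p = 2.6e-05).

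The sums of mesenchymal and of hemangiogenic genes were highest in TCF3 and TCF12, where Igfbp4 was also highest. In the other groups their order differed in part from that of Igfbp4. The hemangiogenic sum was higher in the homodimer and the induced monomer than in TCF4, and the mesenchymal sums of the homodimer overlapped those of the parental line. The 15 mesenchymal genes checked, among them Prrx1, Prrx2, Hand1 and Hand2, summed to 38.7 to 49.9 CPM in parental samples, 41.3 to 48.9 in the homodimer, 44.1 to 50.3 in the monomer line, 70.8 to 79.3 in TCF4, 116 to 161.9 in TCF3 and 114 to 161.7 in TCF12. Of the 14 tested, 10 rose and 0 fell against the parental line in TCF3, where 28.3% of all genes passed. In TCF4 7 rose and 1 fell (12.9% of all genes). In TCF12 10 rose and 1 fell (27.0%), or 9 and 1 without sample 1 (30.3%). All 15 had counts in each of these 3 lines. In the homodimer 1 rose and 3 fell (8.84% of all genes passed), in the induced monomer 3 and 1 (20.0%) and in the uninduced monomer 2 and 1 (19.9%). The 9 hemangiogenic genes checked summed to 26.6 to 29.8 CPM in parental samples, 32.7 to 33.2 in the uninduced and 101.8 to 105 in the induced monomer, 130.3 to 137.6 in the homodimer, 80.4 to 89.7 in TCF4, 159.4 to 205 in TCF3 and 163.6 to 202.8 in TCF12, with Hbb-bh1 at 0 in both monomer groups. Of the 8 tested, 6 rose and 0 fell against the parental line in TCF3, 2 and 0 in TCF4, and 4 and 1 in TCF12 (5 and 1 without sample 1). In the homodimer 2 rose and 0 fell, in the induced monomer 3 and 0 and in the uninduced monomer 2 and 0. The shares of all genes passing are those given for the mesenchymal genes. On induction of the monomer 1 hemangiogenic gene rose, Cd34, and 0 fell (2.00% of all genes). Against the induced monomer, Cd34 was higher in the homodimer and Cdh5 and Lmo2 lower (18.5%). Kdr and Tal1 were higher in TCF4 than in the induced monomer, and Cd34, Cdh5 and Gata1 lower (27.4%). The order of the hemangiogenic sums is therefore not that of each gene. The 8 neural genes checked summed to 362.5 to 384.9 CPM in parental samples, 273.7 to 313.5 in the monomer line and 323.6 to 338.9 in the homodimer. They summed to 384.1 to 450.6 in TCF3, 447.6 to 471.2 in TCF4 and 475.8 to 488.8 in TCF12. Between the heterodimers and the homodimer 14.0% of all genes passed. There 11 of 14 mesenchymal, 5 of 8 hemangiogenic and 8 of 15 extraembryonic endoderm genes were higher, and 0, 1 and 0 lower. Of the 10 pluripotency genes 0 were higher and 5 lower. The extraembryonic endoderm sums of TCF4 and TCF12 overlapped those of the homodimer, while those of TCF3 lay above them. In bulk samples a change in the number of cells of a type and a change in RNA per cell cannot be told apart, and the part of such cells in the Igfbp4 results was not tested. Igfbp4 and Igfbp3 lie on chromosome 11, whose 1114 tested genes had a median log2 fold change of 0.20 against the parental line in TCF3, beside -0.002 for 12766 genes elsewhere, and 30.2% of them rose against 15.4%. In TCF4 the chromosome 11 median was -0.004.

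**Figure D2:**
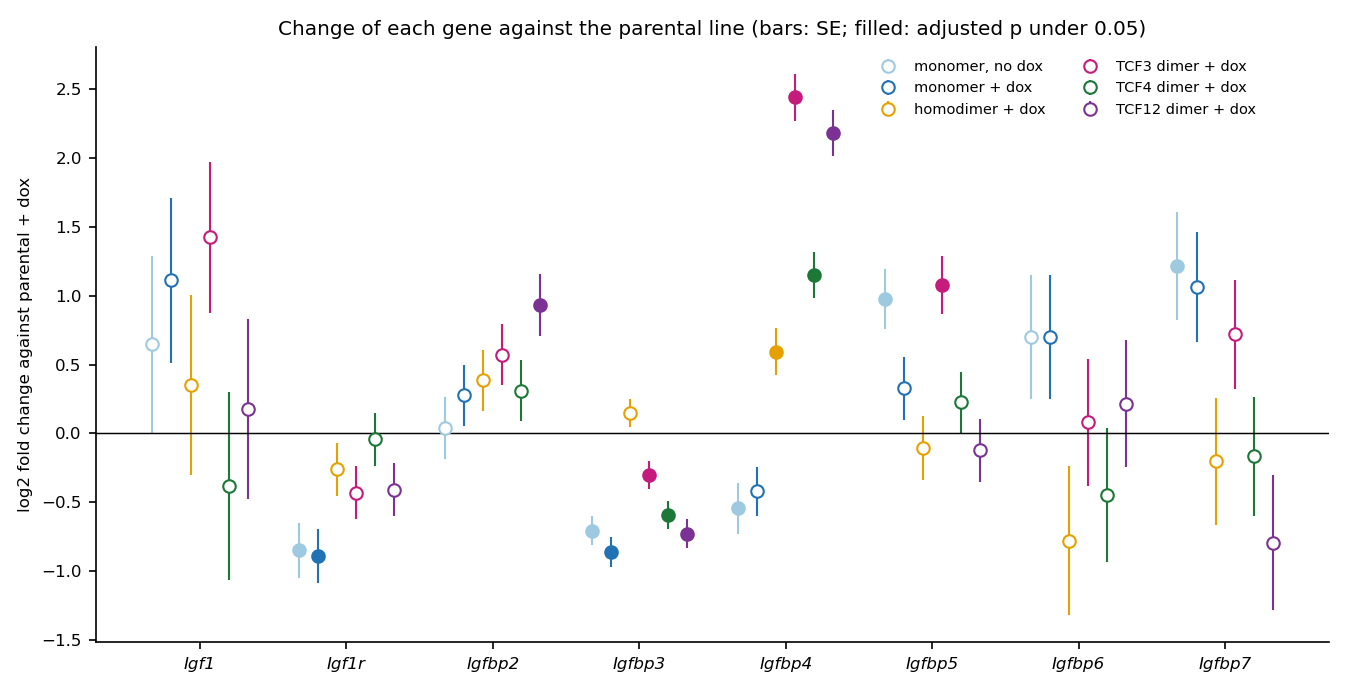
Log2 fold change against the parental line with doxycycline (vertical axis, points with SE bars) for each tested member in the 6 other groups, filled where the adjusted p was under 0.05. Igfbp4 runs from -0.55 in the uninduced monomer to 2.44 in TCF3, while the values of Igfbp3 lie between -0.86 and 0.15.

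Igfbp3 (chr11:7206086-7213923, minus strand) encodes the main IGF carrier of adult blood, which also has actions independent of IGF. It was lower than in the parental line everywhere but in the homodimer. Parental samples 1 to 3 had 27.6, 28.1 and 26.7 CPM, the homodimer 29.4, 29.1 and 33.0, and TCF3 22.8, 19.8 and 24.1. The TCF4 line had 17.2, 17.7 and 19.6 CPM, TCF12 13.9, 18.1 and 17.6, the uninduced monomer 18.4, 15.4 and 16.9 and the induced monomer 14.7, 15.3 and 15.3. The homodimer samples lay above all parental samples, these above TCF3, and TCF3 above the other 4 groups, which overlapped in their order.

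Igfbp3 fell against the parental line by 0.86 ± 0.11 on the log2 scale in the induced monomer (1.82-fold lower, adjusted p = 7.7e-06), by 0.71 ± 0.11 in the uninduced monomer (8.5e-05), by 0.73 ± 0.10 in TCF12 (4.1e-05) and by 0.59 ± 0.10 in TCF4 (0.00049). The TCF12 value was -0.63 (adjusted p = 4.9e-06) without sample 1. The TCF3 value of -0.30 ± 0.10 (adjusted p = 0.032) was the least stable: the call was lost without parental sample 1 or 2, TCF3 sample 1 or 2 or TCF4 sample 1 or 2 (0.05 to 0.13), with scaling by library size only (0.093) and with no filter on low counts (0.15). In the homodimer the value was 0.15 ± 0.10 (95% interval -0.06 to 0.36, adjusted p = 0.5).

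The homodimer was 2.02-fold above the induced monomer for Igfbp3 (1.01 ± 0.11, adjusted p = 1.2e-06), and TCF3 1.47-fold (0.56 ± 0.11, 0.00081). TCF4 gave 0.27 ± 0.11 (adjusted p = 0.07) and 0.28 (0.014) without TCF12 dimer sample 1. The heterodimers as a class lay 1.62-fold below the homodimer (-0.69 ± 0.08, adjusted p = 7.2e-06), with none of their 9 samples reaching a homodimer sample. They differed among themselves (adjusted p = 0.014), a call that was lost without sample 3 labelled TCF3 dimer (0.069) and with only the heterodimers in the fit (0.18). Igfbp3 and Igfbp4 thus changed in opposite directions between homodimer and heterodimers while both were higher in the homodimer than in the monomer.

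**Figure D3:**
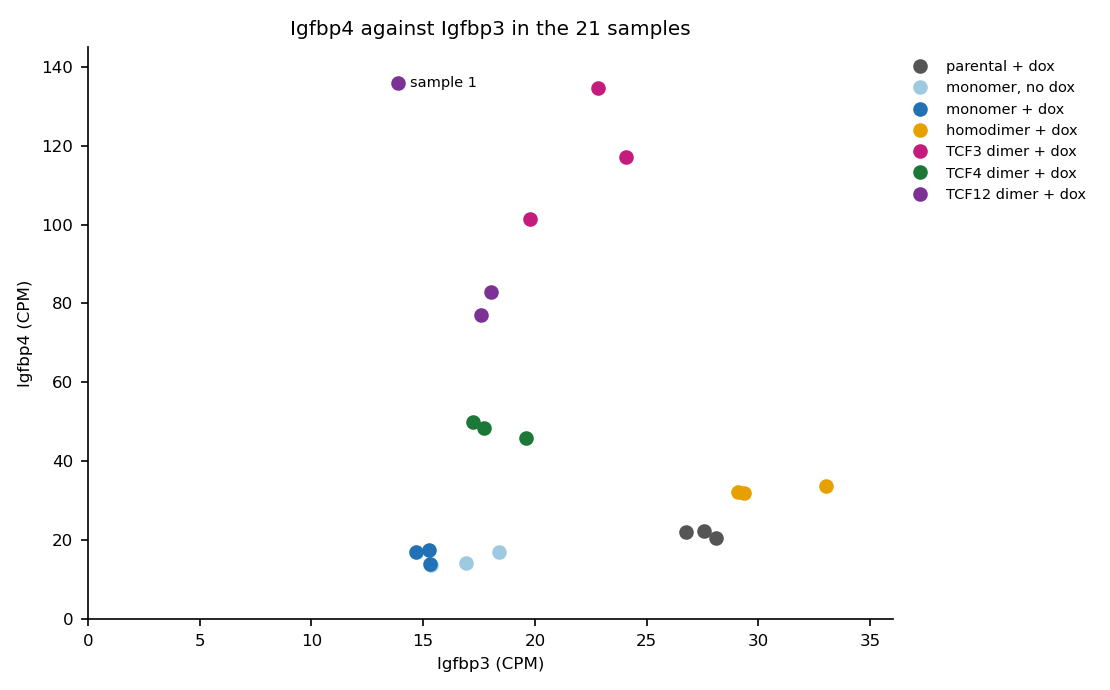
Igfbp4 (vertical axis, CPM) against Igfbp3 (horizontal axis, CPM) in the 21 samples, 1 point per sample, coloured by group. The homodimer and parental samples lie at 26.7 CPM of Igfbp3 or more with Igfbp4 at 33.8 or less, and the heterodimer samples at 24.1 or less with Igfbp4 at 46.0 or more.

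Igfbp2 (chr1:72824503-72852474, plus strand), a binding protein gene active widely in the embryo, was the most abundant member, with 140 CPM per kb of exon on average over the 21 samples, against 11.3 for Igfbp4, 6.70 for Igfbp3, 3.71 for Igf1r and 1.39 or less for each of the others. Parental samples 1 to 3 had 213.4, 186.1 and 192 CPM, the uninduced monomer 216.2, 209.8 and 181.3, and the induced monomer 233.7, 259.9 and 222.8. The homodimer had 270.2, 264.7 and 236.8 CPM, TCF3 294.1, 287.9 and 296.9, and TCF4 250.8, 240.9 and 241.1. TCF12 had 618.5, 279 and 232.3 CPM, so 1 sample lay far above the other two.

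All samples of the induced lines lay above all parental samples for Igfbp2, but only TCF12 passed against the parental line (0.93 ± 0.22, 1.91-fold, adjusted p = 0.0048). Without sample 1 that value was 0.37 (adjusted p = 0.00028), and with only these 2 groups in the fit it did not pass (0.22). The other values against the parental line were 0.57 ± 0.22 in TCF3 (adjusted p = 0.064), 0.38 ± 0.22 in the homodimer (0.39), 0.31 ± 0.22 in TCF4 (0.46) and 0.28 ± 0.22 in the induced monomer (0.47). Without TCF12 dimer sample 1 each of these passed, at 0.56 (4.7e-08), 0.39 (8e-05), 0.31 (0.00087) and 0.27 (0.0028). Igfbp2 in TCF12 against the induced monomer passed at 0.66 ± 0.22 (adjusted p = 0.03) with all samples, and gave 0.11 (0.27) without sample 1. It was also lost without monomer sample 1 (0.076) or 3 (0.092) and with only these 2 groups in the fit (0.32). Leaving out TCF12 dimer sample 1 also brought Igfbp2 past the test on induction of the monomer (0.24 ± 0.22, adjusted p = 0.93, to 0.24, 0.034). The same held in TCF3 against the induced monomer (0.30 ± 0.22, 0.4, to 0.30, 0.00069) and among the heterodimers (0.092 to 0.0071). With only the groups compared in the fit, the induction and TCF3 results also passed (0.04 and 4e-05). The heterodimer test also passed with no filter on low counts (0.0068) and without TCF12 dimer sample 2 (0.031) or 3 (0.0041).

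Igfbp5 (chr1:72857932-72874884, minus strand) encodes a binding protein held in the extracellular matrix. It was highest in TCF3, with 12.7, 12.3 and 14.6 CPM, and in the uninduced monomer, with 12.9, 10.3 and 13.8, and these 2 groups overlapped. The induced monomer had 8.31, 8.55 and 6.66 CPM, the parental line 5.23, 6.40 and 7.06, and the homodimer 5.40, 5.12 and 6.89. TCF4 had 7.08, 7.78 and 7.06 CPM and TCF12 2.94, 7.22 and 6.70. The 6 samples of the higher groups lay above the other 15, whose groups overlapped in their order.

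Against the parental line Igfbp5 rose by 1.08 ± 0.21 in TCF3 (2.11-fold, adjusted p = 0.00071) and by 0.98 ± 0.22 in the uninduced monomer (1.97-fold, 0.0032). Both calls held without any single sample. The uninduced monomer lacked the doxycycline given to the parental line. The induced monomer, which had it, gave 0.33 ± 0.23 against the parental line (adjusted p = 0.39). TCF3 was also above the induced monomer (0.75 ± 0.21, 1.68-fold, adjusted p = 0.013), a call lost without monomer sample 3 (0.074) or TCF3 sample 3 (0.052). Induction of the monomer gave -0.65 ± 0.22 (adjusted p = 0.18), with all 3 induced samples below all 3 uninduced ones. Without TCF12 dimer sample 1 this passed at -0.65 (0.0027). The heterodimers differed among themselves (adjusted p = 0.00071). As a class they gave 0.50 ± 0.19 against the homodimer (adjusted p = 0.086), and 0.59 (6e-04) without TCF12 dimer sample 1. The homodimer gave -0.43 ± 0.23 for Igfbp5 against the induced monomer (adjusted p = 0.22), and -0.42 (0.037) without that sample.

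Igfbp7 (chr5:77349240-77408041, minus strand), which encodes a secreted protein of lower affinity for IGFs, had 3 to 24 counts per sample. Parental samples 1 to 3 had 0.763, 0.867 and 1.01 CPM, the uninduced monomer 1.63, 2.19 and 2.25, and the induced monomer 2.50, 1.91 and 1.18. The homodimer had 0.540, 0.628 and 1.13 CPM, TCF3 1.07, 2.12 and 1.22, TCF4 0.786, 0.855 and 0.730, and TCF12 1.05, 0.328 and 0.242. All 9 samples of the monomer line and TCF3 lay above the 3 parental samples. In exons, 85 bases of Igfbp7 (7.03%) also lie in Polr2b on the other strand, and whether the counts used strand is not given in the sources used here. No other member shares exon bases with another gene.

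Igfbp7 rose against the parental line in the uninduced monomer (1.22 ± 0.39, adjusted p = 0.034), a call lost without any 1 parental sample or without uninduced sample 2 or 3 (0.068 to 0.11). Against the induced monomer it fell by 1.86 ± 0.43 in TCF12 (adjusted p = 0.0024), by 1.27 ± 0.40 in the homodimer (0.033) and by 1.23 ± 0.38 in TCF4 (0.02). The TCF12 value was -2.65 (adjusted p = 3e-05) without sample 1. That value rests on samples 2 and 3, with 4 and 3 counts of Igfbp7, beside the floor of 3 counts. With all 3 samples the TCF12 call was lost with only these 2 groups in the fit (0.082). The homodimer call was lost without monomer sample 1 or 2 or homodimer sample 1 or 2 (0.089 to 0.17), and the TCF4 call without monomer sample 1 or 2 or TCF4 sample 3 (0.059 to 0.13). The test among heterodimers passed (adjusted p = 0.032) and was lost without TCF3 sample 2 (0.15), TCF4 sample 3 (0.053) or TCF12 sample 2 (0.053), and with only the heterodimers in the fit (0.18). Against the parental line TCF12 gave -0.80 ± 0.49 (adjusted p = 0.23), and -1.60 (0.026) without sample 1, from the same 2 libraries near the floor. The induced monomer gave 1.06 ± 0.40 for Igfbp7 against the parental line (adjusted p = 0.069), and 1.05 (0.018) without TCF12 dimer sample 1.

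Markers of extraembryonic endoderm were high in the same groups as Igfbp5 and Igfbp7, apart from Igfbp5 in the induced monomer. The 16 genes checked, among them Gata4, Gata6, Sox17 and Dab2, summed to 3957 to 4608 CPM in the uninduced monomer, 3883 to 4275 in the induced monomer and 2559 to 3090 in TCF3. Parental samples had sums of 1243 to 1260 CPM, against 859 to 936 in the homodimer, 862 to 931 in TCF4 and 838 to 971 in TCF12. Of the 15 tested, 12 rose and 0 fell against the parental line in the uninduced monomer (19.9% of all genes passed) and in the induced monomer (20.0%). In TCF3 12 rose and 2 fell (28.3%). In the homodimer 0 rose and 10 fell (8.84%), in TCF4 0 and 12 (12.9%) and in TCF12 1 and 10 (27.0%). All 16 had counts in each group, and their part in the results of Igfbp5 and Igfbp7 was not tested.

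Igfbp6 (chr15:102144362-102149511, plus strand), whose product prefers IGF2 over IGF1, was low in all groups, with 3 to 14 counts per sample. Parental samples 1 to 3 had 0.654, 0.325 and 0.908 CPM, the uninduced monomer 0.976, 0.732 and 1.37, and the induced monomer 1.14, 1.35 and 0.645. The homodimer had 0.324, 0.449 and 0.309 CPM, TCF3 0.827, 0.530 and 0.651, TCF4 0.393, 0.257 and 0.669, and TCF12 1.26, 0.656 and 0.404. The 3 homodimer samples lay below the 3 induced monomer samples, and each neighbouring pair in the order of group means overlapped. With all samples it passed in 1 comparison, homodimer against induced monomer (-1.48 ± 0.50, adjusted p = 0.044). DESeq2 did not call it (0.066), nor did the test with no filter on low counts (0.066), and the call was lost on leaving out any 1 of the 6 samples but induced monomer sample 3 (0.075 to 0.18), or any of 5 samples of other groups (0.052 to 0.054). TCF4 gave -1.15 ± 0.44 for Igfbp6 against the induced monomer (adjusted p = 0.06), and -1.14 (0.026) without TCF12 dimer sample 1. Igfbp1 (chr11:7197782-7202546, plus strand), known as a liver gene under insulin control, had no counts, which allows up to 0.182 to 0.488 CPM (3 counts) depending on the sample. This floor covers counting error only.

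**Figure D4:**
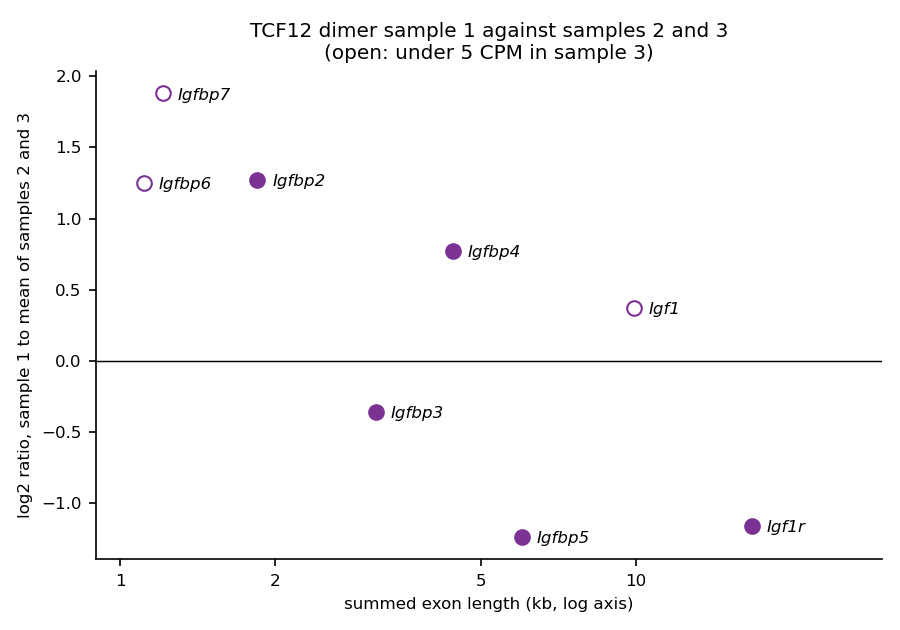
Log2 ratio of the CPM in TCF12 dimer sample 1 to the mean of samples 2 and 3 (vertical axis) against summed exon length in kb (horizontal log axis) for the 8 tested members, open where sample 3 was under 5 CPM. Igfbp2, with 1.85 kb, lies at 1.27 and Igf1r, with 16.8 kb, at -1.16.

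Within the libraries labelled TCF12 dimer the members disagreed. Sample 1 had 2.42 times the mean of samples 2 and 3 for Igfbp2 (1.85 kb of exon) and 1.70 times for Igfbp4 (4.42 kb), but 0.422 times for Igfbp5 (6.01 kb) and 0.447 times for Igf1r (16.8 kb). Igfbp3, with 3.13 kb, stood at 0.777 times. The low members Igfbp7 (1.21 kb), Igfbp6 (1.11 kb) and Igf1 (9.90 kb) stood at 3.68, 2.38 and 1.29 times. Leaving this library out gained 22 of the 104 member results and lost 1, Igfbp2 in TCF12 against the induced monomer.

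For each member of at least 10 CPM on average, the 3 tested genes most alike were found by Pearson's r of log2(CPM + 0.5) over the 21 samples, which include 3 samples of each group and so share their group. Igfbp4 was most like Col5a1, a fibrillar collagen chain (r = 0.983), Adssl1, an enzyme of purine metabolism (0.98), and Bhlhe22, a basic helix-loop-helix factor (0.975). Igf1r was most like Setd7, a lysine methyltransferase (0.964), Ltbp1, a TGF-beta carrier (0.943), and Tenm3, a teneurin (0.942). Igfbp3 was most like Slc4a5, a bicarbonate transporter (0.862), Map7d2, a microtubule-associated protein (0.862), and T, the primitive streak factor brachyury (0.827). Igfbp2 was most like Nans (0.966), Dbi (0.965) and Pafah1b3 (0.948), which were 0.912, 0.888 and 0.846 without TCF12 dimer sample 1. The r between Igfbp3 and Igfbp4 themselves was 0.0363.

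Of 59 other genes of the pathway, listed by role, 54 were tested. Against the parental line 17 passed in the induced monomer (10 higher and 7 lower, 31.5%, against 20.0% of all genes), 9 in the homodimer (6 and 3, 16.7% against 8.84%), 19 in TCF3 (12 and 7, 35.2% against 28.3%), 10 in TCF4 (7 and 3, 18.5% against 12.9%) and 18 in TCF12 (10 and 8, 33.3% against 27.0%). In the uninduced monomer 14 passed (7 and 7, 25.9% against 19.9%). Their median log2 fold changes ran from -0.10 in TCF12 to 0.06 in the induced monomer, beside 0.02 and 0.01 over all tested genes. Without TCF12 dimer sample 1 these counts were 27, 19, 34, 22, 26 and 26 of 54, beside 35.2%, 20.4%, 46.5%, 28.1%, 30.3% and 36.8% of all genes. Between induced and uninduced monomer 1 passed, Stc1 (1.85% against 2.00%). Without that sample 4 passed there (6.17% of all genes): Stc1 (1.62, adjusted p = 0.0018), Irs4 (0.60, 3.1e-06), Pik3cb (0.45, 3.1e-05) and Socs2 (-0.27, 0.0069).

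Among carriers and proteases that act on binding proteins, 8 of 10 were tested. Htra1, a secreted serine protease that cuts IGF binding proteins, had 7.24 ± 0.323 CPM in the parental line (SD, n = 3), 42.0 ± 6.30 in the uninduced monomer, 39.9 ± 2.19 in the induced monomer and 30.1 ± 3.74 in TCF3, and 5.67 to 8.27 on average in the others. It rose against the parental line by 2.53 ± 0.16, 2.46 ± 0.16 and 2.05 ± 0.16 (adjusted p = 2.6e-09, 2.6e-09 and 1.6e-08), in the groups where extraembryonic endoderm markers were also high. Stc1, whose product stanniocalcin-1 blocks PAPP-A, averaged 0.890 ± 0.451 CPM in parental samples and 0.773 ± 0.131 without induction of the monomer. It rose against the parental line in the homodimer (1.64 ± 0.30, adjusted p = 0.0009), TCF3 (1.59 ± 0.29, 0.00036) and the induced monomer (1.43 ± 0.31, 0.0021), and on induction of the monomer (1.63 ± 0.32, 0.0076). Stc2, a related gene, was lower than in the induced monomer in TCF4 (-1.13 ± 0.15, adjusted p = 9.9e-06) and the homodimer (-1.02 ± 0.15, 5.9e-05). Pappa itself averaged 0.330 to 0.926 CPM in the groups and was lower in TCF12 than in the parental line (-1.36 ± 0.48, adjusted p = 0.043). The TCF12 samples had 0.246 to 0.420 CPM of Pappa, near the floor of 0.242 to 0.315 CPM in these libraries. The Pappa value without TCF12 dimer sample 1 is not given here.

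Of the 14 receptor adaptors and their inhibitors, all tested, 4 rose and 3 fell in TCF3, 6 rose and 1 fell in TCF4, 7 rose and 3 fell in TCF12, 3 rose and 2 fell in the homodimer and 2 rose and 3 fell in the induced monomer, against the parental line. Of all genes 28.3%, 12.9%, 27.0%, 8.84% and 20.0% passed in these comparisons. Without TCF12 dimer sample 1 the adaptors passing were 12, 11, 11, 7 and 7, beside 46.5%, 28.1%, 30.3%, 20.4% and 35.2% of all genes. Socs1, an inhibitor of cytokine and IRS signalling, rose in all 4 dimer lines: 1.70 ± 0.28 in TCF3 (adjusted p = 0.00012), 1.72 ± 0.28 in TCF12 (0.00015), 1.33 ± 0.28 in TCF4 (0.003) and 1.01 ± 0.30 in the homodimer (0.038). Socs3, of the same family, rose in TCF3 (1.90 ± 0.20, 5.7e-07), TCF12 (1.06 ± 0.21, 0.00099) and TCF4 (1.03 ± 0.20, 0.0017), and Irs3 in the same lines by 2.01 ± 0.34, 1.67 ± 0.36 and 1.34 ± 0.37 (0.00019, 0.0022 and 0.019). Without sample 1 the TCF12 values were 1.29 for Socs1 (1.2e-05), 0.93 for Socs3 (0.00089) and 1.30 for Irs3 (0.0085). Irs2 was higher than in the induced monomer in TCF4 (1.21 ± 0.14, adjusted p = 3.8e-06) and TCF12 (1.19 ± 0.15, 4e-06, and 1.39 without sample 1). Irs4, a further IRS adaptor, rose in TCF4 by 1.51 ± 0.20 (adjusted p = 2.4e-05) and in the induced monomer by 1.14 ± 0.20 (0.00033). Lower against the parental line by more than 1 on this scale were the receptor-binding adaptors Grb10 in TCF3 (-1.16 ± 0.13, 1.3e-06) and Grb14 in the induced monomer (-1.04 ± 0.24, 0.004), and Irs1 in the uninduced monomer (-1.47 ± 0.49, 0.04).

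Of the 26 genes of the PI3K-AKT branch, 7 passed in the induced monomer (20.0% of all genes), 2 in the homodimer (8.84%), 6 in TCF3 (28.3%), 2 in TCF4 (12.9%) and 5 in TCF12 (27.0%). Without TCF12 dimer sample 1 these were 13, 9, 13, 8 and 9, beside 35.2%, 20.4%, 46.5%, 28.1% and 30.3% of all genes. Pik3cb, a catalytic subunit of PI3K, rose in the homodimer (1.35 ± 0.14, adjusted p = 1.7e-06) and the induced monomer (1.13 ± 0.14, 8.8e-06) and was lower in the heterodimers than in the homodimer (-1.08 ± 0.11, 8.1e-07). Inpp5d, a lipid phosphatase that opposes PI3K, fell in TCF12 (-1.31 ± 0.20, adjusted p = 7.1e-05), and by 1.13 (2e-05) without sample 1. None of the 3 IGF mRNA binding protein genes passed against the parental line but Igf2bp2, which fell in TCF12 with all samples in the fit.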

How the data were processed

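RNA of 21 samples was made into libraries with an Illumina TruSeq mRNA kit, per the labels' protocols. Each sample has 1 deposited table of whole-number counts, with a row for each gene symbol. Per the submitters' processing notes the authors used FastQC, TopHat2, HTSeq and the build mm10/GRCm38; versions, annotation and strand setting are not given in the sources used here. In 18 tables, 25 symbols of the March and Sept families had become dates, which the 3 tables labelled TCF12 dimer do not show, so tables were joined by position.

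All 21 samples entered 1 fit in edgeR 4.0.16 (limma 3.58.1, R 4.3.3), with 1 mean per group, TMM factors and the filterByExpr filter (count of 10, total of 15). The quasi-likelihood test was adjusted by Benjamini-Hochberg over 14311 genes, and SEs come from the F statistic. The procedure was run on simulated counts with the same spread in every library. That run does not cover a library that stands apart, such as TCF12 dimer sample 1. CPM were computed here. Exon lengths and positions are GENCODE M21, promoters RefSeq (GRCm38.p6), where all 9 members matched by symbol.

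The members and lists were chosen with earlier results of these data known. All members are named. For those of at least 10 CPM the 3 most alike genes are named, and some pathway genes among those that passed with an absolute log2 fold change of at least 1. Igf2, Igf2r, Insr, Igf2bp2, Socs2 and the values of Irs4 and Pik3cb on induction fall outside this and were chosen after their values were seen. The alternatives were fitting only the groups compared, a replicate block, DESeq2 1.42.0, scaling by RLE factors or by library size only, testing without a filter or at 1 CPM in 3 samples, and leaving out each sample.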

Additional observations from a re-analysis of the deposited data

Results flagged for a closer look

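Each of these results was singled out because 2 or more groups differed under a test of the difference itself. Among the 3 heterodimers, edgeR's quasi-likelihood F-test gave an adjusted p of 2.6e-05 for Igfbp4, 0.00071 for Igfbp5, 0.014 for Igfbp3, 0.032 for Igfbp7 and 0.034 for Igf1. Group means were 117.7, 48.1 and 98.6 CPM for Igfbp4 and 13.2, 7.31 and 5.62 for Igfbp5 in TCF3, TCF4 and TCF12. They were 22.2, 18.2 and 16.5 CPM for Igfbp3, 1.47, 0.791 and 0.540 for Igfbp7 and 1.05, 0.305 and 0.445 for Igf1. The Igfbp4 and Igfbp5 results held without any single sample. With only the heterodimers in the fit, Igfbp3 and Igfbp7 did not pass (0.18 each) and Igf1 was not tested. Between the heterodimers as a class and the homodimer, Igfbp4 was higher (adjusted p = 2.3e-06) and Igfbp3 lower (7.2e-06), with no overlap of samples.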

How the results depend on the processing

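Of 104 member results, 37 passed, and 22 of these kept their call under all 28 alternative settings; no call changed direction, and 16 fold changes that passed nowhere changed sign. The replicate numbers in the titles are shared by all groups, and whether they pair the samples is not given in the sources used here. Deviations of same-numbered samples correlated at 0.0214 on average (-0.221 to 0.344, 63 pairs) and of others at -0.0102 (-0.36 to 0.296, 126 pairs). Deviations were taken from group means, which ties the averages to each other, so these values cannot exclude pairing. With the replicate block 5 members passed in TCF3 against the parental line instead of 3, with Igf1 (adjusted p = 0.048) and Igfbp2 (0.041) gained; Igfbp6 in the homodimer against the monomer was lost (0.051). With only the groups compared in the fit, the members passing went from 2 to 5 in the induced monomer, 1 to 3 in the homodimer and 3 to 5 in TCF3 against the parental line, 0 to 2 on induction of the monomer, 3 to 5 in TCF3 and 3 to 1 in TCF12 against the monomer, and 5 to 2 among the heterodimers, where Igf1 was no longer tested. Leaving out 1 sample gave 2 to 5 members in the induced monomer, 0 to 3 in the homodimer, 2 to 6 in TCF3 and 3 to 5 in the uninduced monomer against the parental line, 0 to 2 on induction, and, against the induced monomer, 2 to 6 in the homodimer, 2 to 5 in TCF3 and 2 to 6 in TCF4; among the heterodimers it gave 3 to 7. The share of all genes passing moved by over 1.5 times in each of the 13 comparisons with no filter on low counts (0.968% to 16.9%) and with only the groups compared (5.2% to 49.1%), beside 2.00% to 33.5%. With no filter the share is over all genes with any count, a larger base than the 14311 genes of the main fit. Without TCF12 sample 3 the share was 42.7% in TCF12 against the parental line and 49.9% among the heterodimers. Without parental sample 2 it was 8.57% in TCF4 and 17.8% in TCF12 against the parental line, without TCF3 sample 1 14.3% in TCF3 against the monomer and 17.3% among the heterodimers, without TCF3 sample 3 16.4% among the heterodimers, without homodimer sample 1 or 2 9.22% and 9.04% between heterodimers and homodimer, and without any 1 induced sample or uninduced sample 1 or 2 1.19% to 1.32% on induction. Scaling by library size only moved the share of calls that were higher from 52.7% to 41.4% in the uninduced monomer against the parental line and from 57.6% to 69.6% in TCF3 against the induced monomer. The cause was not tested. Igf1, Igfbp6 and Igfbp7, with 24 counts or fewer in each sample, are limited by depth.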
